A study of Mus musculus with 8 samples.

Results

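The ephrin, semaphorin, slit and netrin families and their receptors were described on 4 Agilent mouse expression arrays. Members were all genes on the array whose name began with Epha, Ephb, Efna, Efnb, Sema, Plxn, Ntn, Robo or Slit followed by a digit or a letter from a to d. This gave 60 of 27671 genes, measured by 110 of 41174 probes. Of these genes, 26 encode receptors (Eph receptors, plexins and Robo proteins) and 34 encode ligands (ephrins, semaphorins, slits and netrins). The rule uses names and no measured value, but it was set with earlier results of these data known.

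Total RNA from 4 cell populations was hybridised with Cy3 label, with 1 array per population. The populations were embryonic stem (ES) cells from blastocysts of 129/Ola mice, PM2i-iPSC, OM2i-iPSC and mouse embryonic fibroblasts (MEF). PM2i-iPSC were made from MEF given combinations with purmorphamine, an agonist of the Hedgehog pathway protein Smoothened, and then 2i/LIF. OM2i-iPSC were made in the same way with an oxysterol, a class of oxidised cholesterol that includes other activators of Smoothened. The medium 2i/LIF holds inhibitors of the kinases MEK and GSK3 and the cytokine LIF, and maintains naive pluripotency. The labels give the developmental stage of MEF and of both preparations as embryo and give them no strain, and they do not say whether a preparation was 1 clone or a mixed culture or which MEF were treated. The other 4 samples of the series were measured on Affymetrix arrays and were not used here.

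These families steer cells and axons by contact or over short distances. Eph receptors are receptor tyrosine kinases; ephrin-A ligands are held in the membrane by a lipid anchor and ephrin-B ligands span it, so that signals can run into both touching cells. Plexins are the main receptors of semaphorins, with neuropilins as partners for most secreted class 3 semaphorins. Robo receptors bind secreted slits, and netrins act through Dcc, neogenin and Unc5 receptors. Fibroblasts and other mesenchymal cells use the same proteins for migration, cell sorting and tissue boundaries.

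A level here is log2 of the processed signal minus log2 of the 75th percentile of that array, so 0 is the signal of that percentile. Levels were compared between arrays for the same probe and never between probes. A gene was represented by the probe with the highest mean level over the 4 arrays. It entered a comparison where that probe was well above background, by the scanner software's own call, on at least 1 of both arrays. A dimmer side without that call was raised to the lowest signal on its array that had it, where it lay below, and the fold is given as "at least". With 1 array per group there is no replicate error and no p-value. The only spread available is the one among repeated spots on a single array, an SD of 0.207 on the log2 scale over 245 probes with 10 spots, or 0.292 for a difference. In what follows, a gene is counted as higher or lower only where the difference reached 2-fold. In RNA from whole cultures, fewer cells that express a gene and less RNA per cell cannot be told apart.

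The labels were checked against marker genes. Of 9 pluripotency markers, all 9 were higher than in MEF in ES, 8 in PM2i-iPSC and 8 in OM2i-iPSC. Pou5f1 read 3.65 in ES, 3.21 in PM2i-iPSC and 2.68 in OM2i-iPSC, against -6.66 in MEF. Of 10 fibroblast markers, 9 fell short of MEF by 2-fold in ES, 10 in PM2i-iPSC and 8 in OM2i-iPSC. Well above background were 10, 9 and 8 of them. ES and PM2i-iPSC were hybridised on 1 slide and OM2i-iPSC and MEF on a slide each, and the MEF slide had its own scan day and an older software version. Slide and population therefore cannot be told apart in any comparison with MEF or OM2i-iPSC. The lowest level well above background was -5.13 on the ES array, -4.59 on both the PM2i-iPSC and the OM2i-iPSC array and -6.85 on the MEF array, so that weak signals were called deepest in MEF. The gene's representing probe was well above background for 48 of the 60 genes in ES, 47 in PM2i-iPSC, 54 in OM2i-iPSC and 52 in MEF, and for 40 genes on all 4 arrays.

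The guidance genes spread widely in both directions from MEF. Of 51 members with a fold between ES and MEF, 22 were higher in ES and 16 lower. Over all genes with a fold in that comparison the shares were 36.4% higher and 24.2% lower, against 43.1% and 31.4% of the members. PM2i-iPSC had 24 higher and 16 lower of 51, where 37.6% of all genes were higher and 26.2% lower. OM2i-iPSC had 32 higher and 14 lower of 55, where 40.2% of all genes were higher and 25.2% lower. The split depended on the scaling. With the median of each array in place of its 75th percentile there were 19 higher and 21 lower in ES, 20 and 21 in PM2i-iPSC, and 25 and 18 in OM2i-iPSC. Over all genes the shares were then 27.2% higher and 34.4% lower in ES, 28.0% and 36.9% in PM2i-iPSC, and 29.3% and 37.7% in OM2i-iPSC. That scaling moved the median of all genes by between -0.75 and 0.12 over the 6 comparisons.

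**Figure D1:**
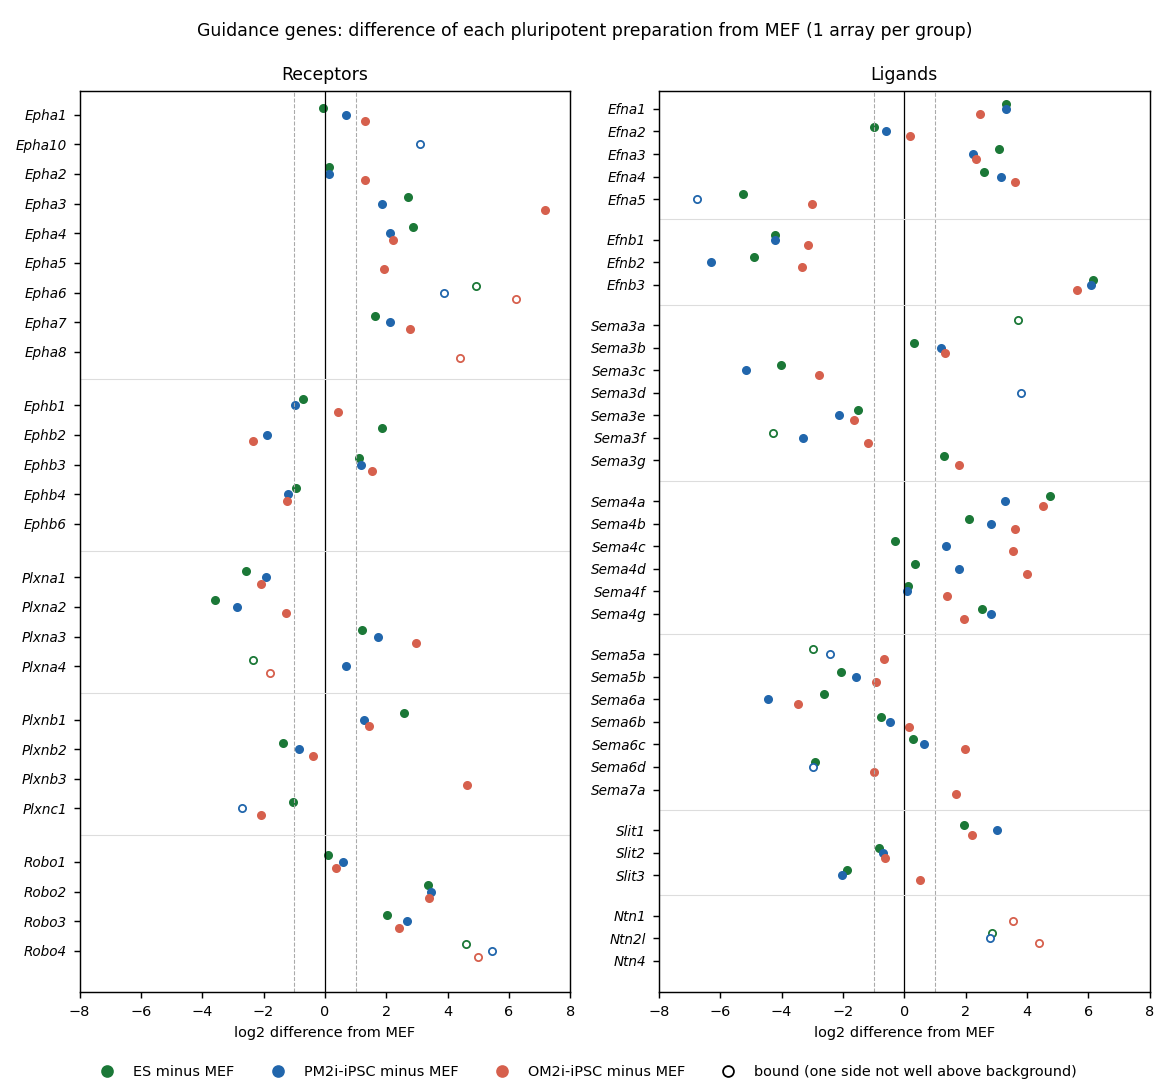
Log2 difference from MEF of each receptor gene (left) and ligand gene (right) in ES, PM2i-iPSC and OM2i-iPSC, with 1 point per array pair and open points for bounds. Dashed lines mark 2-fold; Efna5, Efnb1, Efnb2 and Sema3c lie far to the left and Efnb3, Epha6, Robo4 and Sema4a far to the right.

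Receptors were set against ligands in each comparison. The median log2 difference of receptors was 1.11 in ES over MEF, with 11 of 21 higher and 5 lower. That of ligands was -0.09, with 11 of 30 higher and 11 lower, and the median of all genes was 0.28. In PM2i-iPSC over MEF the medians were 0.93 for receptors and 0.08 for ligands. In OM2i-iPSC over MEF they were 1.48 and 1.40, so that both roles lay above the median of all genes, 0.40. The gap between receptors and ligands was not stable. In ES over MEF it was 0.25 with normexp background correction and 0.11 with 1 detection floor on every array, in place of 1.20, and 0.85 with every probe on its own. With the median over the probes of each gene, receptors minus ligands was -0.18 in ES over MEF, -0.33 in PM2i-iPSC over MEF in place of 0.85, and -0.42 in OM2i-iPSC over MEF in place of 0.08.

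**Figure D2:**
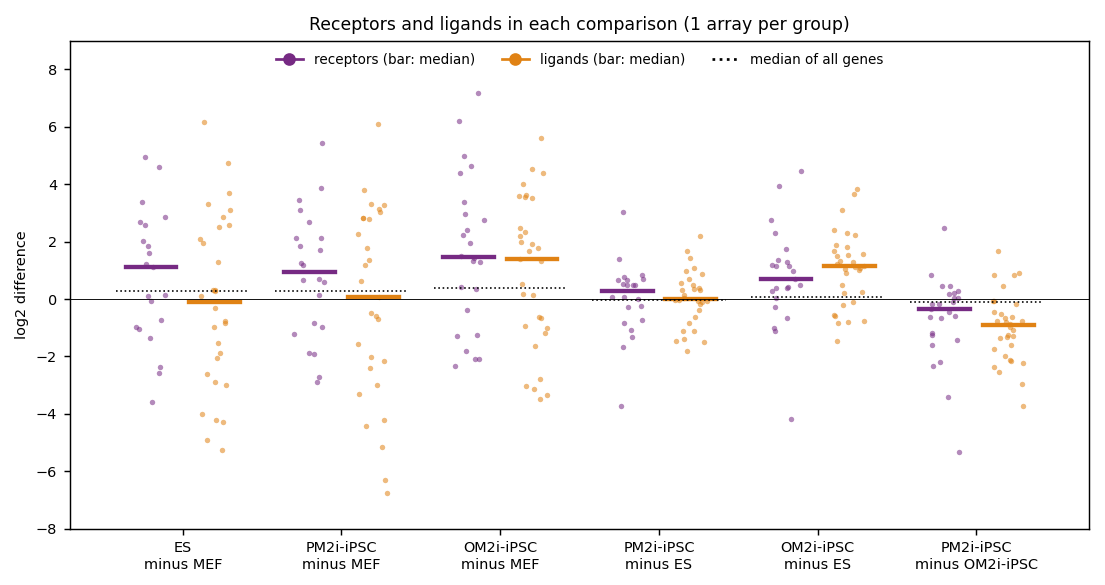
Log2 difference of every receptor and ligand gene in the 6 comparisons, with 1 point per gene, bars at the medians of each role and dotted lines at the median of all genes. Receptors and ligands overlap throughout; the ligand bar stands at 1.14 in OM2i-iPSC over ES and at -0.92 in PM2i-iPSC over OM2i-iPSC.

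Counts by group of molecules are small and rest on the probe used for each gene. They stand beside the shares over all genes given above. These were 36.4% higher and 24.2% lower in ES, 37.6% and 26.2% in PM2i-iPSC, and 40.2% and 25.2% in OM2i-iPSC. The Robo and class 4 semaphorin genes with a fold held no member lower than in MEF in ES, PM2i-iPSC or OM2i-iPSC, and neither did Epha. On other probes, however, Epha3 and Robo2 were lower than MEF in all of these populations. Their log2 differences in ES were at most -5.38 and at most -3.47. Another Epha7 probe was lower in PM2i-iPSC, at most -1.60. Of 7 plexins with a fold in ES, 2 were higher and 5 lower, and of 6 class 5 to 7 semaphorins none was higher and 4 were lower. Ephrins split in each comparison, with 4 of 8 higher and 3 lower in ES, 4 and 3 in PM2i-iPSC, and 4 and 3 in OM2i-iPSC.

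**Figure D3:**
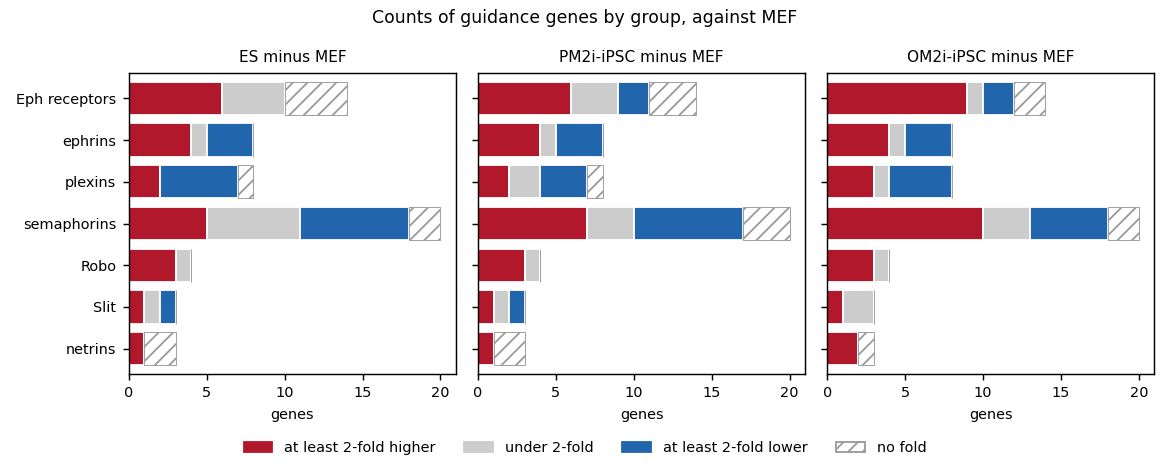
Number of genes of each group that were higher, under 2-fold, lower or without a fold against MEF, by population. Eph receptors had 6, 6 and 9 higher members of 14, and ephrins 4 of 8 in each panel.

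Among the A-class Eph receptors, Epha6 stood furthest above MEF in ES. It read -1.91 in ES, -2.98 in PM2i-iPSC and -0.63 in OM2i-iPSC, against -8.85 in MEF, where it was not well above background. The folds over MEF were at least 30.6 in ES, at least 14.6 in PM2i-iPSC and at least 74.5 in OM2i-iPSC. With normexp background correction the log2 differences were smaller, 2.93 in place of 4.94 in ES, 1.92 in place of 3.87 in PM2i-iPSC and 4.07 in place of 6.22 in OM2i-iPSC. The other probe of Epha6 was well above background only in MEF, at -5.69, so the gene's direction rests on the probe used. That probe lies on the minus strand at chr16:60361592-60361651 of build mm7, as the file gives it; it and the probes below are shown because each carries a result, and their exon position was not analysed here.

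Epha6 probe: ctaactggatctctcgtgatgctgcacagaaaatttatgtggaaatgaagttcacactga

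Epha4, which binds ephrins of both classes, read 0.76 in ES, 0.02 in PM2i-iPSC and 0.11 in OM2i-iPSC, against -2.11 in MEF. MEF was exceeded 7.31-fold, 4.37-fold and 4.65-fold. Epha7 read -1.96 in ES, -1.46 in PM2i-iPSC and -0.80 in OM2i-iPSC, against -3.57 in MEF. ES, PM2i-iPSC and OM2i-iPSC all lay above MEF for both genes on these probes, but other probes of both genes were closer to MEF or below it. A second Epha4 probe read -3.30 in ES, -3.13 in PM2i-iPSC and -3.88 in OM2i-iPSC, against -3.56 in MEF. A second Epha7 probe read -3.29 in ES, -4.53 in PM2i-iPSC (not well above background) and -0.98 in OM2i-iPSC, against -2.93 in MEF. Epha1 and Epha2 were the narrowest of the A class, with ranges over the 4 arrays of 1.36 and 1.32. Epha2, the receptor best known for ephrin-A1, read 2.10 in ES, 2.10 in PM2i-iPSC and 3.28 in OM2i-iPSC, against 1.97 in MEF, so that OM2i-iPSC alone passed 2-fold.

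Epha3, a receptor of ephrin-A5, had the widest difference of any guidance gene. Its representing probe read -1.21 in ES, -2.06 in PM2i-iPSC and 3.26 in OM2i-iPSC, against -3.91 in MEF, a 144-fold difference between OM2i-iPSC and MEF. The probe carries the accession of a cDNA clone. Both other Epha3 probes carry that of the RefSeq transcript; 1 was dim on all 4 arrays, and the other was not well above background in ES, PM2i-iPSC or OM2i-iPSC and read 0.24 in MEF, with log2 differences of at most -5.38 in ES, -4.83 in PM2i-iPSC and -4.83 in OM2i-iPSC. The 2 informative probes thus put Epha3 on opposite sides of MEF, and no direction is given for the gene.

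Other A-class receptors were near the limit of detection. Epha8 was well above background only in OM2i-iPSC, at -2.39, at least 20.9-fold above MEF and at least 6.70-fold above ES. Epha10, which lacks kinase activity, was well above background only in PM2i-iPSC, at -3.74, at least 8.63-fold above MEF. Epha5 read -4.43 in OM2i-iPSC and -6.37 in MEF, and was not well above background in ES or PM2i-iPSC.

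Ephb2 separated ES from both iPSC preparations. The receptor read -0.43 in PM2i-iPSC and -0.88 in OM2i-iPSC, against 3.31 in ES and 1.45 in MEF. Relative to ES it was lower by 13.3-fold in PM2i-iPSC and by 18.2-fold in OM2i-iPSC. Relative to MEF it was 3.70-fold and 5.05-fold lower, while ES stood 3.61-fold above MEF. These were the widest differences below ES in both. The second Ephb2 probe read -2.54 in ES and -5.81 in MEF and was not well above background in PM2i-iPSC or OM2i-iPSC. Both probes therefore read highest in ES. The second probe is given from position 136035998 to 136037395 of chromosome 4, minus strand, mm7, a span of 1398 bases for a probe of 60.

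Ephb2 second probe: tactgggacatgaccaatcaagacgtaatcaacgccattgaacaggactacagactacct

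The other B-class receptors differed less. Ephb3 read 2.03 in ES, 2.11 in PM2i-iPSC and 2.44 in OM2i-iPSC, against 0.93 in MEF, which is 2.15-fold to 2.86-fold higher. Ephb1 read -2.07 in ES, -2.33 in PM2i-iPSC and -0.92 in OM2i-iPSC, against -1.35 in MEF, under 2-fold in each case. Ephb4, the receptor of ephrin-B2 on veins, read -2.30 in ES, -2.56 in PM2i-iPSC and -2.58 in OM2i-iPSC, against -1.34 in MEF. PM2i-iPSC fell short of MEF by 2.32-fold and OM2i-iPSC by 2.36-fold, and its second probe lay on the other side of MEF. Ephb6, which also lacks kinase activity, was well above background only in MEF, at -5.39, and had no fold.

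The ephrins showed the sharpest division among the ligands. Efnb3, a transmembrane ephrin, read -0.27 in ES, -0.35 in PM2i-iPSC and -0.82 in OM2i-iPSC, against -6.43 in MEF. The folds over MEF were 71.5 in ES, 67.8 in PM2i-iPSC and 49.1 in OM2i-iPSC, each the widest upward difference of any ligand. The MEF level lay close to the floor of -6.85, so the size of these folds is uncertain. With normexp the log2 differences were 4.39 in ES, 4.20 in PM2i-iPSC and 3.98 in OM2i-iPSC, in place of 6.16, 6.08 and 5.62. Its relatives Efnb1 and Efnb2 stood on the other side. Efnb1 read -0.31 in ES, -0.33 in PM2i-iPSC and 0.76 in OM2i-iPSC, against 3.89 in MEF, and was 18.4-fold, 18.7-fold and 8.78-fold lower. Efnb2, a marker of arteries and of segment boundaries, read -0.92 in ES, -2.33 in PM2i-iPSC and 0.64 in OM2i-iPSC, against 3.97 in MEF, and was 29.8-fold, 78.8-fold and 10.1-fold lower. Its second probe also read highest in MEF, by a log2 difference of only -0.69 in ES, -1.03 in PM2i-iPSC and -0.11 in OM2i-iPSC.

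The A-class ephrins divided as well. Efna5 read -3.08 in ES, -5.24 in PM2i-iPSC (not well above background) and -0.85 in OM2i-iPSC, against 2.17 in MEF. MEF exceeded ES 38.0-fold, PM2i-iPSC at least 108.5-fold and OM2i-iPSC 8.11-fold. A second Efna5 probe, for another transcript accession, read -2.37 in PM2i-iPSC and -2.91 in MEF and was dim in ES and OM2i-iPSC, so PM2i-iPSC was lowest on 1 probe and highest on the other. Efna2 was the narrowest ephrin, with a range of 1.17 over the 4 arrays.

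Efna1, Efna3 and Efna4 were higher in ES and both iPSC preparations than in MEF, and each rested on 1 probe. Efna1 read -2.55 in ES, -2.53 in PM2i-iPSC and -3.37 in OM2i-iPSC, against -5.85 in MEF (9.84-fold, 9.97-fold and 5.59-fold higher). Efna3 read -1.06 in ES, -1.90 in PM2i-iPSC and -1.82 in OM2i-iPSC, against -4.15 in MEF (8.51-fold, 4.76-fold and 5.01-fold higher). Efna4 read -2.86 in ES, -2.29 in PM2i-iPSC and -1.83 in OM2i-iPSC, against -5.44 in MEF (5.99-fold, 8.88-fold and 12.2-fold higher). All 3 arrays lay above MEF for each of these genes, which follow each other on chromosome 3 with no other protein-coding gene between them.

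The promoters of these adjacent genes are shown because the genes lay on the same side of MEF. Each runs from 250 bases before to 50 bases after the gene's start in the RefSeq promoter table (GRCm38.p6, a later build than the array's), all on the minus strand. The 3 windows are chr3:89280902-89281201 for Efna1, chr3:89322890-89323189 for Efna3 and chr3:89337979-89338278 for Efna4. Capitals mark the dinucleotide CG, which reads the same on both strands and is the site of DNA methylation; methylation was not measured here. The counts were 20 in Efna1, 22 in Efna3 and 11 in Efna4, against a median of 7 over 27025 promoters, 1 per gene, of which 94.2% held at least 1. Promoters with at least 11 made up 41.9%, with at least 20 26.8% and with at least 22 23.3%.

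Efna1 promoter: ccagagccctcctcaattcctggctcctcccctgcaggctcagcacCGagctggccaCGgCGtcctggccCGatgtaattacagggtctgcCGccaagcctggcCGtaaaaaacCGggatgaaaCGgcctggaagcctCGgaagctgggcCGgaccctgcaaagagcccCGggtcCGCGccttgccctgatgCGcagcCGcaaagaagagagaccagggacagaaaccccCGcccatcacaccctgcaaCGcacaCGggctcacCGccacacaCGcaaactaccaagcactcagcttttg
Efna3 promoter: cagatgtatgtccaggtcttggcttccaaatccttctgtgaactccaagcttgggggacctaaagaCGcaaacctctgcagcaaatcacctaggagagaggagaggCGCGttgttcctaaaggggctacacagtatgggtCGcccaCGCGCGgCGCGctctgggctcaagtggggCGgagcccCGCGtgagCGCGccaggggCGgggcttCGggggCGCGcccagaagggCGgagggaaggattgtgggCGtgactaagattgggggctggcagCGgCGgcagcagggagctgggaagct
Efna4 promoter: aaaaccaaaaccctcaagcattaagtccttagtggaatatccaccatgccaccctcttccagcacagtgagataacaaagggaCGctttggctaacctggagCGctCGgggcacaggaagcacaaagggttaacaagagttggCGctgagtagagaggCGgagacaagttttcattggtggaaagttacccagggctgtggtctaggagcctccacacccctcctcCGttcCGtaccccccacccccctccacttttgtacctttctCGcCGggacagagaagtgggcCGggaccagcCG

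Promoters were matched for 52 of the 60 members. Their median was 20.5 CG, with 18 for the receptors and 22.5 for the ligands. On the probes used, the 20 matched members that were higher in ES than in MEF had a median of 17.5, and the 12 that were lower had 27. The higher ones include Epha3 and Robo2 and the lower ones Sema5b, genes for which no direction is given here. The same split was not made over all genes, and a link between CG and direction was not tested.

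Of the plexins, receptors of semaphorins, 5 of 7 were lower than in MEF in ES, 3 of 7 in PM2i-iPSC and 4 of 8 in OM2i-iPSC, and 2, 2 and 3 were higher. Plxna1 read 0.34 in ES, 0.99 in PM2i-iPSC and 0.82 in OM2i-iPSC, against 2.92 in MEF, and was 5.98-fold, 3.81-fold and 4.28-fold lower. Plxna2, a receptor of class 6 semaphorins, read -4.45 in ES, -3.77 in PM2i-iPSC and -2.15 in OM2i-iPSC, against -0.88 in MEF, and was 11.9-fold, 7.39-fold and 2.41-fold lower. Plxnb2 read -1.87 in ES, -1.34 in PM2i-iPSC and -0.88 in OM2i-iPSC, against -0.50 in MEF, and passed 2-fold in ES alone. On the probes used, all 3 genes had their highest level in MEF. The second Plxna1 probe, however, lay above MEF by log2 differences of 0.11 in ES, 0.78 in PM2i-iPSC and 0.84 in OM2i-iPSC. The second Plxnb2 probe did so by 0.79, 0.76 and 0.35.

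Plxnc1, the receptor of semaphorin 7A, read -2.92 in ES, -5.40 in PM2i-iPSC (not well above background) and -3.95 in OM2i-iPSC, against -1.87 in MEF. PM2i-iPSC fell short of MEF at least 6.57-fold. Plxnb3 was well above background in OM2i-iPSC, at -1.18, and in MEF, at -5.81, a 24.7-fold difference, and OM2i-iPSC stood at least 15.4-fold above ES. Plxna4 read -2.10 in PM2i-iPSC and -2.78 in MEF and was not well above background in ES or OM2i-iPSC. PM2i-iPSC was at least 8.18-fold above ES and at least 5.61-fold above OM2i-iPSC on that probe, and neither of its other probes was well above background in PM2i-iPSC.

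Plxna3 and Plxnb1 were above MEF on the probe used. Plxna3 read -2.35 in ES, -1.85 in PM2i-iPSC and -0.61 in OM2i-iPSC, against -3.56 in MEF. Its second probe read -3.97 in ES, -2.99 in PM2i-iPSC and -0.08 in OM2i-iPSC, against -1.97 in MEF. OM2i-iPSC was above MEF on both probes and ES on only the first. Plxnb1, the receptor of semaphorin 4D, read -2.34 in ES, -3.65 in PM2i-iPSC and -3.47 in OM2i-iPSC, against -4.91 in MEF, but its second probe was well above background only in MEF, at -2.87. The Plxna3 probe used is given on chromosome X, plus strand, from 69728367 to 69728598 of mm7, a span of 232 bases for a probe of 60.

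Plxna3 probe: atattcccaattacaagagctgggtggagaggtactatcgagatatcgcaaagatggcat

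Class 3 semaphorins are secreted. Sema3c, known for its role in neural crest and heart outflow tract, read -1.93 in ES, -3.05 in PM2i-iPSC and -0.70 in OM2i-iPSC, against 2.10 in MEF, and was 16.2-fold, 35.5-fold and 6.93-fold lower. Sema3f, a ligand of neuropilin-2, read -4.98 in ES (not well above background), -3.99 in PM2i-iPSC and -1.88 in OM2i-iPSC, against -0.69 in MEF. It was at least 19.5-fold, 9.84-fold and 2.28-fold lower. MEF had the highest level of both genes, and OM2i-iPSC the next.

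Sema3e read -1.88 in ES, -2.50 in PM2i-iPSC and -1.99 in OM2i-iPSC, against -0.36 in MEF, on its main probe, while another was well above background only in OM2i-iPSC, at -4.20. Sema3d was well above background only in PM2i-iPSC, at -2.93, at least 13.9-fold above MEF, at least 4.62-fold above ES and at least 3.17-fold above OM2i-iPSC, on its only probe. With normexp its log2 difference from MEF was 2.00 in place of 3.80. Sema3b and Sema3g had narrow ranges, 1.34 and 1.77. Sema3a, the ligand of neuropilin-1, gave opposite answers. The probe used was well above background only in ES, at -3.14, at least 13.0-fold above MEF, whereas both other probes were well above background only in MEF, at -0.90 and -2.79.

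Class 4 semaphorins span the membrane. Of the 6, 3 were higher than in MEF in ES, 5 in PM2i-iPSC and 6 in OM2i-iPSC. None was lower in any of them, and their median log2 differences were 1.22, 2.29 and 3.57. Sema4a, first studied for its part in T cell responses, read 0.09 in ES, -1.36 in PM2i-iPSC and -0.12 in OM2i-iPSC, against -4.65 in MEF, and was 26.8-fold, 9.77-fold and 23.2-fold higher. With normexp its log2 difference in ES was 3.57 in place of 4.74. Sema4b read -3.19 in ES, -2.48 in PM2i-iPSC and -1.69 in OM2i-iPSC, against -5.29 in MEF. Sema4g read -0.55 in ES, -0.24 in PM2i-iPSC and -1.14 in OM2i-iPSC, against -3.07 in MEF. MEF was lowest for these 3 genes, each measured by 1 probe.

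On the probes used, Sema4c and Sema4d were close to MEF in ES and above both in the iPSC preparations. Sema4c, a ligand of plexin-B2, read 1.42 in PM2i-iPSC and 3.59 in OM2i-iPSC, against -0.24 in ES and 0.06 in MEF, which is 3.16-fold and 14.3-fold above ES. Sema4d, also called CD100, read 1.80 in PM2i-iPSC and 4.04 in OM2i-iPSC, against 0.37 in ES and 0.04 in MEF, which is 2.70-fold and 12.7-fold above ES. The second probe of each gene also read highest in OM2i-iPSC but differed less from ES. For Sema4c it read -0.16 in PM2i-iPSC and 0.96 in OM2i-iPSC, against -0.09 in ES and -0.53 in MEF. For Sema4d it read -0.49 in PM2i-iPSC and 0.48 in OM2i-iPSC, against -0.64 in ES and -4.31 in MEF. On these probes PM2i-iPSC was under 2-fold from ES for both genes, and Sema4d in ES lay above MEF by a log2 difference of 3.67. Sema4f had the narrowest range of the class, with -3.86 in ES, -3.89 in PM2i-iPSC and -2.57 in OM2i-iPSC, against -3.97 in MEF.

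Class 5 to 7 semaphorins are membrane proteins. On the probes used, those with a wide difference in ES and PM2i-iPSC were lower than in MEF, but another Sema5b probe was higher. Sema6a, a ligand of plexins A2 and A4, read 1.04 in ES, -0.77 in PM2i-iPSC and 0.19 in OM2i-iPSC, against 3.66 in MEF, and was 6.17-fold, 21.6-fold and 11.1-fold lower on the probe used. Its other probes gave log2 differences from MEF of -0.33 and -1.06 in ES, at most -0.98 and -1.10 in PM2i-iPSC, while in OM2i-iPSC 1 of them lay above MEF, by 0.26, and the median over the 3 probes was under 2-fold, at -0.97. Sema5a read -5.52 in ES and -4.57 in PM2i-iPSC, neither well above background, and -2.82 in OM2i-iPSC, against -2.15 in MEF. The differences were at least 7.89-fold for ES and at least 5.35-fold for PM2i-iPSC. Sema6d read -4.50 in ES, -5.43 in PM2i-iPSC (not well above background) and -2.60 in OM2i-iPSC, against -1.60 in MEF. OM2i-iPSC was the closest to MEF for Sema5a and Sema6d.

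Sema6c read -1.47 in ES, -1.12 in PM2i-iPSC and 0.22 in OM2i-iPSC, against -1.76 in MEF, with OM2i-iPSC 3.95-fold above MEF. Its second probe read -1.52 in ES, -3.38 in PM2i-iPSC and -2.59 in OM2i-iPSC, against 0.42 in MEF, which is the reverse. Sema5b read 0.76 in ES, 1.23 in PM2i-iPSC and 1.87 in OM2i-iPSC, against 2.80 in MEF. The highest of its 3 probes lay above MEF, by log2 differences of at least 3.74 in ES, 3.76 in PM2i-iPSC and 2.37 in OM2i-iPSC. No direction is given for Sema5b. Sema6b had a range of 0.92 over the 4 arrays, the narrowest of the semaphorins, and Sema7a, which is held by a lipid anchor, 1.68.

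On the probes used, the Robo receptors were above MEF in ES and both iPSC preparations, apart from Robo1. Robo4, best known from endothelial cells, read -2.25 in ES, -1.40 in PM2i-iPSC and -1.85 in OM2i-iPSC, against -7.99 in MEF (not well above background), at least 24.2-fold, 43.6-fold and 32.0-fold higher. With normexp its log2 differences were 2.32 in ES, 3.42 in PM2i-iPSC and 3.03 in OM2i-iPSC. Robo3, which lets axons cross the midline, read -3.75 in ES, -3.09 in PM2i-iPSC and -3.37 in OM2i-iPSC, against -5.78 in MEF, and on a second probe -4.71 in ES and -5.06 in MEF, with both iPSC preparations not well above background. Robo2 read -1.43 in ES, -1.36 in PM2i-iPSC and -1.40 in OM2i-iPSC, against -4.80 in MEF. It was 10.3-fold, 10.9-fold and 10.5-fold higher on that probe, but not on others. Robo1 was, on the probe used, the narrowest gene of the whole set, with a range of 0.59. That probe read 2.59 in ES, 3.09 in PM2i-iPSC and 2.86 in OM2i-iPSC, against 2.50 in MEF. A second Robo1 probe read -3.86 in PM2i-iPSC and -5.11 in MEF and was not well above background in ES or OM2i-iPSC. There PM2i-iPSC lay above MEF by a log2 difference of 1.25 and above ES by at least 1.28.

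Robo2 had 6 probes, and they differed in where they gave signal, so no direction is given for the gene. A second probe of its RefSeq transcript was well above background only in MEF, at -1.67. Its log2 differences from MEF were at most -3.47 in ES, -2.92 in PM2i-iPSC and -2.92 in OM2i-iPSC. Another was well above background only in PM2i-iPSC, at -1.45, and another only in MEF, at -5.35. The other two were not well above background anywhere. Other endothelial markers were read beside Robo4. Of 4, Tek was well above background in all but MEF, at -2.05 in ES, 0.17 in PM2i-iPSC and -1.68 in OM2i-iPSC. Tie1 was so only in ES, at -4.73, Cdh5 only in MEF, at -3.38, and Emcn only in MEF, at -5.27. The summed linear level of the 4 markers was 0.301 in ES, 1.18 in PM2i-iPSC and 0.339 in OM2i-iPSC, against 0.126 in MEF, in units of each array's 75th percentile. The part of such cells in the Robo4 levels was not tested. The Robo2 probe used lies on the minus strand at chr16:73968260-73968319 of mm7.

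Robo2 probe: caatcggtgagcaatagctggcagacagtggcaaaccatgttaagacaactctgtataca

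The slits, ligands of the Robo receptors, differed among themselves. Slit1 read -3.12 in ES, -2.05 in PM2i-iPSC and -2.88 in OM2i-iPSC, against -5.07 in MEF, and was 3.86-fold, 8.12-fold and 4.56-fold higher. Slit2 stayed under 2-fold on its main probe, at -0.67 in ES, -0.52 in PM2i-iPSC and -0.46 in OM2i-iPSC, against 0.16 in MEF. A second Slit2 probe, however, read -2.82 in ES, -6.68 in PM2i-iPSC (not well above background) and -0.89 in OM2i-iPSC, against 2.44 in MEF. Slit3 read 1.42 in ES, 1.26 in PM2i-iPSC and 3.82 in OM2i-iPSC, against 3.30 in MEF. On that probe ES and PM2i-iPSC were 3.67-fold and 4.10-fold below MEF while OM2i-iPSC was 1.44-fold above it. The second Slit3 probe read -3.64 in PM2i-iPSC and 2.00 in MEF and was not well above background in ES or OM2i-iPSC, so MEF was highest there. The Slit3 probe used lies on the plus strand at chr11:35561771-35561830 of mm7.

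Slit3 probe: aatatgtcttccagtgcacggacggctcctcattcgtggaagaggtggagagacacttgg

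Of the netrins, the probe used for Ntn1, the founding midline attractant, was well above background only in OM2i-iPSC, at -3.31, at least 11.7-fold above MEF and at least 3.55-fold above ES. A second Ntn1 probe was well above background only in MEF, at -6.28. Ntn2l, whose current symbol is Ntn3, read -3.99 in ES, -4.06 in PM2i-iPSC and -2.45 in OM2i-iPSC, against -7.42 in MEF (not well above background), at least 7.25-fold, 6.92-fold and 21.1-fold higher. Ntn4 was well above background only in MEF, at -5.65, and had no fold.

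Both iPSC preparations were then set against ES, on whose array the comparisons share their baseline. In PM2i-iPSC, 6 of 52 guidance genes were higher and 10 lower than in ES, where 14.6% of all genes were higher and 11.7% lower. OM2i-iPSC had 30 of 55 higher and 4 lower, where 21.6% of all genes were higher and 13.7% lower. In OM2i-iPSC the members' shares were 54.5% and 7.27%, and the ligands were 20 of 32 higher and 1 lower. Scaled to the median of each array, 22 members were higher and 6 lower in OM2i-iPSC, where 17.4% of all genes were higher and 17.9% lower. The median log2 difference of the ligands from ES was -0.00 in PM2i-iPSC and 1.14 in OM2i-iPSC. That of the receptors was 0.28 in PM2i-iPSC and 0.70 in OM2i-iPSC.

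**Figure D4:**
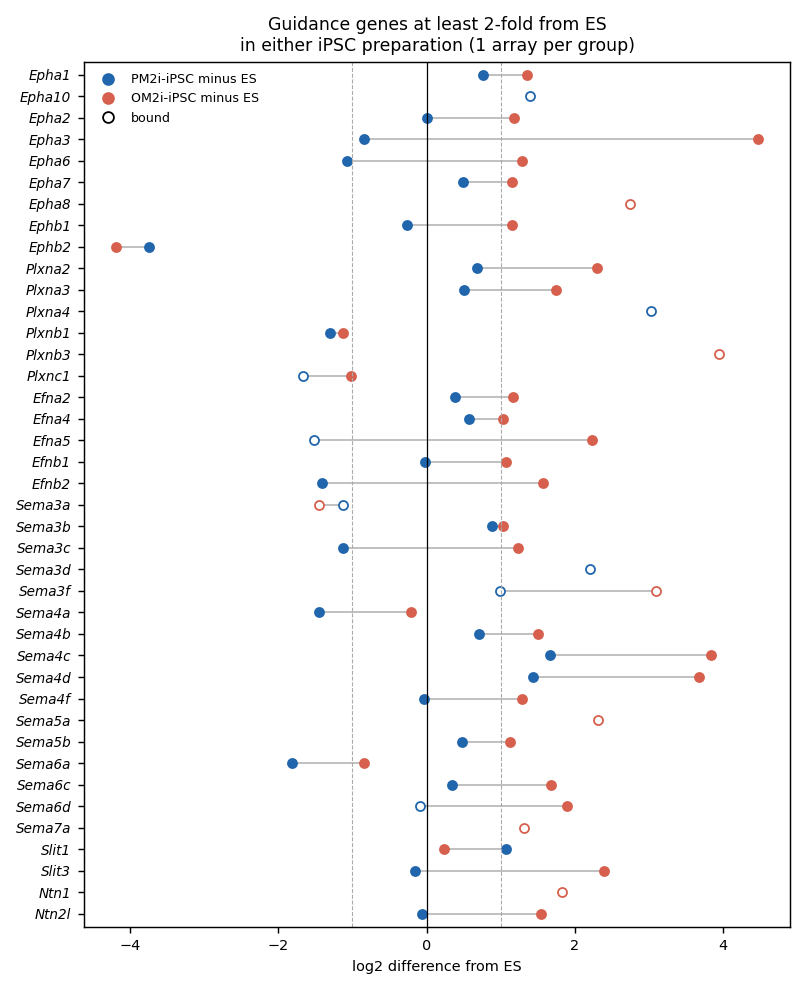
Log2 difference from ES in PM2i-iPSC and OM2i-iPSC for each guidance gene that passed 2-fold in either, with 1 point per array pair and open points for bounds. Most OM2i-iPSC points lie right of 0; Ephb2 lies furthest left in both, and Epha3, Plxnb3, Sema4c and Sema4d furthest right in OM2i-iPSC.

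Plxna4 and Sema3d were furthest above ES in PM2i-iPSC, at least 8.18-fold and at least 4.62-fold, followed by Sema4c and Sema4d. Ephb2 and Sema6a were furthest below, 13.3-fold and 3.50-fold, but both other probes of Sema6a gave log2 differences of less size, at most -0.65 and -0.05. In OM2i-iPSC, Epha3, Plxnb3, Sema4c and Sema4d were furthest above ES, 22.2-fold, at least 15.4-fold, 14.3-fold and 12.7-fold. Ephb2, Sema3a, Plxnb1 and Plxnc1 were the 4 members lower than ES there, 18.2-fold, at least 2.72-fold, 2.18-fold and 2.03-fold. With normexp Ephb2 alone was lower, since Sema3a, Plxnb1 and Plxnc1 had log2 differences of -0.999, -0.974 and -0.574, each under 2-fold. With normexp 12.1% of all genes were lower. ES and PM2i-iPSC shared a slide and OM2i-iPSC did not, so slide and preparation cannot be told apart in these counts.

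PM2i-iPSC were last set against OM2i-iPSC. Of 57 guidance genes with a fold, 2 were higher in PM2i-iPSC, Plxna4 and Sema3d, and 23 were lower. Over all genes 12.5% were higher and 17.6% lower. The ligands gave 1 higher and 15 lower of 32 with a median log2 difference of -0.92, the receptors 1 higher and 8 lower of 25 with a median of -0.34, and all genes a median of -0.10. With quantile normalization 6 members were higher and 24 lower, where 15.4% of all genes were higher and 16.9% lower. Epha3 (39.9-fold), Efna5 (at least 13.4-fold), Plxnb3 (at least 10.6-fold) and Efnb2 (7.83-fold) were furthest below OM2i-iPSC on the probes used. With the median over probes the log2 difference was 0.18 for Epha3 and -0.25 for Efna5, so no direction is given for either. Slit3 (5.89-fold), Epha6 (5.09-fold), Sema3c (5.11-fold), Sema4c (4.51-fold) and Sema4d (4.72-fold) were lower as well on the probes used. The second Slit3 probe was well above background in PM2i-iPSC and not in OM2i-iPSC, so no direction is given for Slit3. The second probes of Efnb2, Sema4c and Sema4d also read lower in PM2i-iPSC, but by less. Their log2 differences were -0.92 for Efnb2 and -1.12 for Sema4c.

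Markers of other lineages were read in the same arrays as these differences. Of 6 neuronal markers, 3 were well above background in PM2i-iPSC, 5 in OM2i-iPSC, 5 in ES and 6 in MEF, with summed linear levels of 2.02, 4.73, 1.52 and 3.05. Snap25 read -4.45 in PM2i-iPSC (not well above background) and -1.64 in OM2i-iPSC, against -4.53 in ES. Of 3 trophoblast markers, 2 were well above background in each of the pluripotent populations and 1 in MEF, with summed levels of 0.456, 1.56, 0.438 and 0.024. Cdx2 read -3.25 in PM2i-iPSC and 0.43 in OM2i-iPSC, against -3.05 in ES. Eomes did not follow it, with -1.56 in PM2i-iPSC and -2.27 in OM2i-iPSC, against -1.73 in ES. Elf5 was not well above background on any array. The neural progenitor list (Pax6, Sox1 and Nes) summed to 0.712 in PM2i-iPSC, 1.13 in OM2i-iPSC, 0.622 in ES and 1.24 in MEF. Nes alone was well above background in MEF, at 0.30, against -1.62 in PM2i-iPSC, -0.83 in OM2i-iPSC and -1.97 in ES. Pax6 and Sox1 went the other way from the sum in MEF. Pax6 read -2.53 in PM2i-iPSC, -1.35 in OM2i-iPSC, -1.75 in ES and -8.02 in MEF. Sox1 read -2.23, -2.47, -3.85 and -6.92 in the same order. Of both blood markers, Cd34 read 1.67 in PM2i-iPSC, 3.24 in OM2i-iPSC, 1.06 in ES and 2.93 in MEF, and Ptprc was well above background only in ES, at -4.04. The part of differentiated cells in the higher OM2i-iPSC levels of the guidance genes was not tested.

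Many of these differences hang on the probe. Of the 60 genes, 33 had several probes and 27 had 1, and among the 110 probes 54 were well above background on all 4 arrays, 12 on none and 15 in MEF alone. In ES over MEF, 26 genes had a fold from at least 2 probes. In 6 of these all probes passed 2-fold in the same direction, and in 6 some probe was higher and another lower. In PM2i-iPSC over MEF there were 6 and 8 such genes of 23, and in OM2i-iPSC over MEF 9 and 6 of 23. Over the 3 comparisons, probes of Epha3, Epha7, Ephb4, Plxna3, Plxnb1, Robo2, Sema3a, Sema3e, Sema5b, Sema6c and Slit2 went opposite ways. Counted probe by probe, 25 of 83 member probes (30.1%) were higher and 32 (38.6%) lower in ES than in MEF, where 37.0% of all probes were higher and 24.1% lower.

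**Figure D5:**
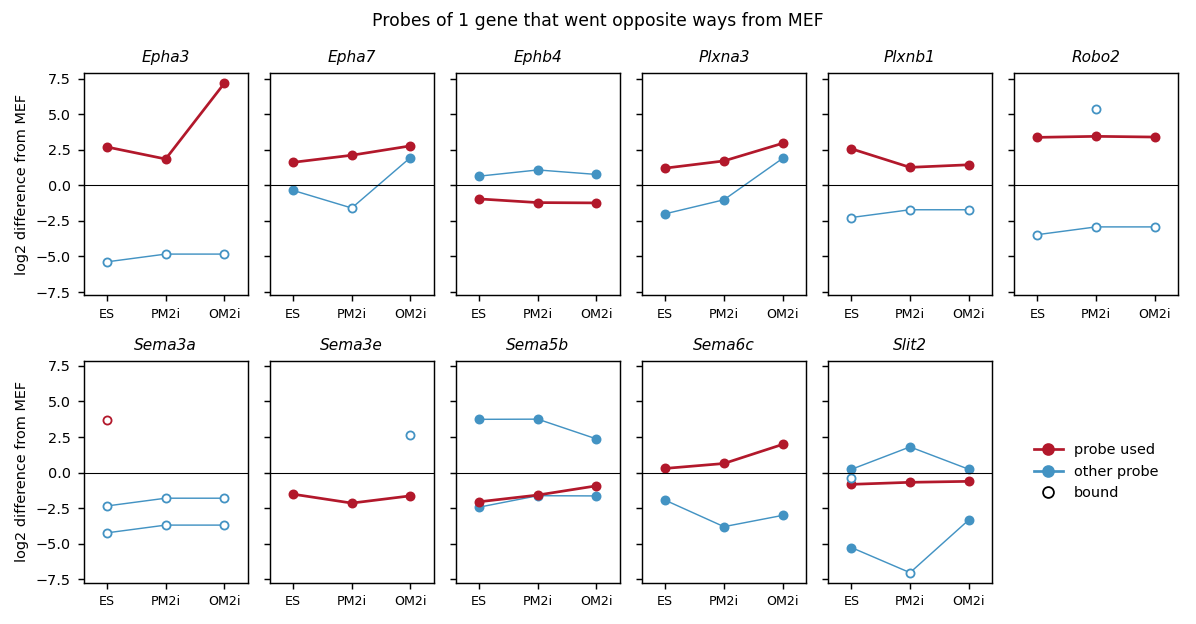
Log2 difference from MEF of every probe with a fold, in ES, PM2i-iPSC and OM2i-iPSC, for the 11 genes whose probes went opposite ways. Each panel is 1 gene. Probes of each gene lie on opposite sides of 0, by at least 2-fold each, in ES, PM2i-iPSC or OM2i-iPSC. For some genes, such as Epha3, they do so in all of these. The Epha3 probes stand at 7.17 and at most -4.83 in OM2i-iPSC.

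Partners of these families that lie outside them by name were counted in the same way, against the same shares over all genes (36.4% higher and 24.2% lower in ES, 37.6% and 26.2% in PM2i-iPSC, 40.2% and 25.2% in OM2i-iPSC). Of 14 co-receptors and other guidance receptors, 2 were higher and 7 lower than in MEF in ES, 2 and 9 in PM2i-iPSC, and 4 and 8 in OM2i-iPSC. The netrin receptor Unc5a read 1.97 in ES, 3.88 in PM2i-iPSC and 4.40 in OM2i-iPSC, against -3.79 in MEF, and the adhesion receptor Dscam -4.66 in ES, -2.35 in PM2i-iPSC and -2.96 in OM2i-iPSC, against -8.94 in MEF (not well above background). Neuropilin-1 (Nrp1) was well above background only in MEF, at 0.34. Flrt2, a ligand of Unc5 receptors, read -2.87 in ES, -4.63 in PM2i-iPSC (not well above background) and -4.33 in OM2i-iPSC, against 4.16 in MEF. In OM2i-iPSC the netrin receptor Dcc (2.43) and the adhesion protein Nrcam (1.58) were also higher than in MEF by these log2 differences.

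Of 5 further ligands, 1 was higher and 3 lower than in MEF in ES. In PM2i-iPSC 0 were higher and 2 lower, and the counts were the same in OM2i-iPSC. Rgma, a ligand of neogenin, read -2.19 in ES, -5.10 in PM2i-iPSC (not well above background) and -4.34 in OM2i-iPSC, against -4.32 in MEF. Draxin, a secreted ligand of Dcc, read 0.49 in ES, -0.49 in PM2i-iPSC and -1.30 in OM2i-iPSC, against 2.49 in MEF. Of 30 intracellular mediators, 7 were higher and 13 lower in ES, 6 and 14 in PM2i-iPSC, and 8 and 13 in OM2i-iPSC. Mical2, an enzyme that oxidises actin in the plexin pathway, read 0.30 in ES, -2.31 in PM2i-iPSC and -2.38 in OM2i-iPSC, against 3.44 in MEF. Farp1, a plexin-associated exchange factor, read 0.65 in ES, -0.11 in PM2i-iPSC and 2.38 in OM2i-iPSC, against 4.56 in MEF. Srgap1, which acts downstream of Robo receptors, read -3.21 in ES, -2.00 in PM2i-iPSC and -3.90 in OM2i-iPSC, against -9.07 in MEF (not well above background).

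Members also lie near each other in the genome. In the order of protein-coding genes of the RefSeq table, 9 pairs of members had at most 4 genes between them and 5 were adjacent. Robo4 and Robo3 on chromosome 9 were both higher than MEF in ES and both iPSC preparations, with log2 differences of 4.60 and 2.03 in ES. Robo1 and Robo2 on chromosome 16 were not alike on the probes used, at 0.09 and 3.37 in ES, though other Robo2 probes went the other way. Sema3b and Sema3f on chromosome 9, with 3 genes between them, lay at 1.18 and -3.30 in PM2i-iPSC. Sema3a and Sema3e, with 3 genes between them, lay at least at 3.71 and at -1.52 in ES on the probes used. Ephb2 and Epha8, also with 3 between them, lay at -2.34 and at least at 4.39 in OM2i-iPSC. Epha6 and Epha3, with 4 between them, were both higher than MEF in ES on the probes used. Pairs that were not adjacent thus lay on the same side of MEF or on opposite sides. How often neighbouring genes in general lie on the same side was not computed.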

How the data were processed

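Total RNA of 4 populations was measured on 1-colour Agilent arrays, with 1 array each. The deposited processed intensity of each spot was made by Agilent Feature Extraction (9.5.3.1 for MEF and 10.7.3.1 for the other arrays), per the file headers, with the background already subtracted. Spots of a probe were averaged, and the log2 of each intensity was taken relative to the array's 75th percentile, with numpy 2.4.6 and pandas 2.3.3 in Python 3.11.15. The deposited table of processed intensities lay within 0.498% of the scanner values and was an alternative. Probes were named through the RefSeq table, with 22951 matched on accession, 6659 on symbol and 3109 on a synonym, and 8455 kept the file's name. The genes described were, per family, up to 4 with the widest and up to 2 with the narrowest range over the arrays. Added to these were the 4 widest in each direction in each of the 6 comparisons, and genes with opposite probes. The members and lists were chosen with earlier results of these data known. Alternatives were another background correction (normexp with limma 3.58.1, offset 50, on median spot signals), other scalings, filters, floors, probe rules and a 4-fold threshold. The number of arrays limits the precision.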

Additional observations from a re-analysis of the deposited data

Results flagged for a closer look

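For 4 members, PM2i-iPSC and OM2i-iPSC lay on opposite sides of ES by at least 2-fold each. The share of all genes that did so was not computed, so the count is not read as particular to these families. Of all genes, 14.6% were higher and 11.7% lower than ES in PM2i-iPSC, and 21.6% and 13.7% in OM2i-iPSC. The log2 differences from ES were -1.51 (a bound) in PM2i-iPSC and 2.23 in OM2i-iPSC for Efna5. That result turns with the probe, since a second Efna5 probe put PM2i-iPSC at least 2.76 above ES and the median over probes was 1.35. The differences were -1.40 and 1.57 in the same order for Efnb2, -1.07 and 1.28 for Epha6, and -1.13 and 1.23 for Sema3c. On the second Efnb2 probe they were -0.34 and 0.58, each under 2-fold. For each member both differences share the ES array. The difference between the preparations was not tested, since each had 1 array.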

How the results depend on the processing

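Over all settings, 129 of the values that answer a comparison kept their direction and size, 31 moved and 2 turned. Of values for single genes, lists and roles, 315 kept them, 149 moved and 4 turned. The deposited table moved none of the 78 values computed from it. The cause of each change was not tested. Receptors minus ligands, as a difference of medians, was the least stable. In ES over MEF it was 0.25 with normexp, 0.79 with quantile normalization, 0.48 scaled to the array median, 0.71 with both arrays above background, 0.39 with no filter, 0.11 with the highest floor on every array and -0.18 with the median over probes. In PM2i-iPSC over MEF it was 0.56 with normexp, 0.50 with quantile normalization, 0.32 with both arrays above background, 0.32 with no filter and -0.33 with the median over probes. In OM2i-iPSC over MEF it was 0.54 with quantile normalization and -0.42 with the median over probes, and in PM2i-iPSC over ES -0.0085 with both arrays above background. With every probe on its own, a setting chosen after seeing the data, it was 0.85, 1.36 and 0.63 in ES, PM2i-iPSC and OM2i-iPSC over MEF. With the median over probes, receptors stood at -0.11 in ES over MEF, Efna5 at 1.35 in PM2i-iPSC over ES, and Epha3 at -2.91 in OM2i-iPSC over MEF and 0.18 in PM2i-iPSC over OM2i-iPSC. Of the counts, OM2i-iPSC had 1 member lower than ES with normexp and 2 with the median over probes. The shares of all genes lower were then 12.1% and 13.8%. PM2i-iPSC had 3 members higher than ES with both arrays above background and 3 lower with the median over probes. Of all genes, 11.6% were higher in the first setting and 11.8% lower in the second. PM2i-iPSC had 6 members higher than OM2i-iPSC with quantile normalization, 0 with both arrays above background and 4 with the median over probes. The shares of all genes higher were 15.4%, 10.9% and 13.3% in the same order. At a 4-fold threshold, 21 members were higher and 8 lower in OM2i-iPSC than in MEF, 2 and 1 in PM2i-iPSC against ES, 10 and 1 in OM2i-iPSC against ES, and 1 and 11 in PM2i-iPSC against OM2i-iPSC. In the same order, the members' shares were 38.2% and 14.5%, 3.85% and 1.92%, 18.2% and 1.82%, and 1.75% and 19.3%. Those over all genes were 26.7% and 12.3%, 3.92% and 2.34%, 6.30% and 3.04%, and 3.42% and 4.58%. No paired analysis was possible because each group had 1 array. The slide as a block was not run for the same reason.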
